A study of Mus musculus with 4 samples.

Results

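The genes of the constitutive proteasome and its assembly factors were followed in cultured fibroblasts of mouse embryos that differed in their Wip1 genotype label and in irradiation. They were chosen by name: every gene whose platform symbol reads Psm, then 1 letter from a to g, then a number, without Psmb8, Psmb9 and Psmb10, the catalytic subunits of the immunoproteasome. This gave 44 genes of 18193, covered by 96 probe sets of 34945 with 1 gene symbol. They comprised 8 genes of the alpha ring, 8 of the beta ring, 6 ATPases and 3 other subunits of the base, 8 subunits of the lid, 7 assembly factors, and 4 activators or inhibitors. A further probe set carried the symbols of both Psme2 and Psme2b and was left out, since it cannot be given to 1 gene.

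The proteasome is the protease that degrades proteins tagged with ubiquitin. Its core particle is a barrel of stacked rings, with alpha subunits forming the gate and beta subunits holding the active sites inside. A regulatory particle sits on the ends of the barrel: its lid removes ubiquitin from the substrate, and the ATPases of its base unfold the protein and feed it into the core. Dedicated chaperones build the rings and the base. When proteasome activity is lost, mammalian cells are known to raise many of these genes together through the transcription factor Nfe2l1.

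RNA was hybridized to 4 Affymetrix Mouse Genome 430 2.0 arrays, 1 array for each of 4 groups: Wip1+/+ or Wip1-/- cells, either unirradiated (0 h) or harvested 4 h after 5 Gy of gamma radiation. Wip1 is the phosphatase encoded by Ppm1d. Which part of the gene is deleted, how many embryos the cells came from and their passage are unknown here. No array holds unirradiated cells at 4 h, so radiation and time in culture cannot be told apart. With 1 array per group there was no replicate and no test: no p-value is given, and the spread between cultures is unknown. Fewer cells of a type and less RNA per cell cannot be told apart in such samples.

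The 2 probe sets of Ppm1d did not check the genotype labels. In Wip1+/+ cells the brighter read 375 unirradiated and 364 irradiated, and under the Wip1-/- label 504 and 482. The other read 317 and 463, then 219 and 561. Neither probe set was absent under the Wip1-/- label, so its arrays are called by their label throughout. The unirradiated array labelled Wip1-/- stood apart: over 18 spike-in controls the SD of the log2 ratio was 0.44 to 0.47 in the pairs with this array and 0.07 to 0.10 in the others. All 12 fibroblast markers were above the floor, the low signal value to which dimmer values were raised, on every array. All 13 macrophage markers were lower under the Wip1-/- label, before and after irradiation. Their summed signal was 10010 and 10098 in Wip1+/+ cells and 2740 and 2361 in cells labelled Wip1-/-, where Fcer1g alone was at the floor, on the unirradiated array. Their part in the results was not tested.

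Signal is a linear intensity per probe set, and its trimmed mean was 500 on each array as deposited. It does not compare the RNA of different genes, since probe sets differ in brightness. Values under the floor of 46.5 were set to it, and a gene entered through its brightest probe set if the mean signal over the arrays was at least 67.95. On this basis 42 of the 44 genes entered, among 11546 in all, and all 42 had a mean of 500 or more. The 2 that did not were Psma8, the alpha subunit of testis, which read 2.6 to 17.4, and Psmb11, the beta subunit of thymic cortex, which read 10.2 to 52.7. Of the 96 probe sets, 70 passed.

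Promoter windows, from 250 bases before to 50 after the listed start, were matched for 36 of the 44 genes from RefSeq (GRCm38.p6). The antioxidant response element TGACNNNGC, the kind of site bound by Nfe2l1 and Nfe2l2, was searched on both strands and was present in 6 of the 36 genes (16.7%), beside 14% of 27025 genes with a window and 16.7% of the 9370 of these that passed the filter. CCAAT was present in 13 (36.1%), beside 41.1% and 42.9%. The ends of the 2 motifs can share a base, and 0 of the 36 genes held both, beside 5.81% and 7.41%. The shares are a description. The 6 genes with the element were Psmb5, Psmb6, Psmc6, Psmd9, Psmd12 and Psme4.

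The windows of Psmb5 and Psmb6 are shown as active-site genes with the element near the start, 47 and 9 bases before it. Those of Psmd6 and Psmc4 are shown as genes with a single low probe set, each with 1 listed start. Psmb4, another such gene with 1 listed start, is not shown. Capitals mark the element, and the windows in lower case throughout held neither motif. The windows are chr14:54617946-54618245 (minus strand), chr11:70525107-70525406 (plus strand), chr14:14120896-14121195 (minus strand) and chr7:28050043-28050342 (minus strand), each written 5′ to 3′ along the gene.
Psmb5: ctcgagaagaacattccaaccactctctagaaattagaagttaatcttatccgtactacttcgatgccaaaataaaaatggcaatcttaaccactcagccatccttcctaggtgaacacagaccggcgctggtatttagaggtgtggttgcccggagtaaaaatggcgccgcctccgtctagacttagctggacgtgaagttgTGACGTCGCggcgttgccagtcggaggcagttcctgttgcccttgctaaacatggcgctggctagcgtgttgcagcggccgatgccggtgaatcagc
Psmb6: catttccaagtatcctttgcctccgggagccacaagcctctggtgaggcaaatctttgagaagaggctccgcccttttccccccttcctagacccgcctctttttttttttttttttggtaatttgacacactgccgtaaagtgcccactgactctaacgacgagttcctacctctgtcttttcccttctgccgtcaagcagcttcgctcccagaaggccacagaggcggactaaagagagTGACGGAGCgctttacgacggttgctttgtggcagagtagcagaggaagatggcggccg
Psmd6: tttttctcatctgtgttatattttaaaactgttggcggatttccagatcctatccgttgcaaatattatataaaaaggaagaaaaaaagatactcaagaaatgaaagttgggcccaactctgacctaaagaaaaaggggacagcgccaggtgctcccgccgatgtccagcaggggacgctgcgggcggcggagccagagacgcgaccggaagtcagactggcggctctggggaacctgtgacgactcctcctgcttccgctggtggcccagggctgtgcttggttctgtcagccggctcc
Psmc4: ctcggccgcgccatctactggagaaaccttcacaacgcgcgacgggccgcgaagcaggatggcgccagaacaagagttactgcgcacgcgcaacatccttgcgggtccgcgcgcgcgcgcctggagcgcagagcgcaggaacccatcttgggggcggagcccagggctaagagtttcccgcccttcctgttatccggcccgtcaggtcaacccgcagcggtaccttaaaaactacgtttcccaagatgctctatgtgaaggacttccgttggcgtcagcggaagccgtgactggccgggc

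Leaving out the array that stood apart, the proteasome genes read nearly alike on the other 3. The highest of the 3 signals was within 1.25-fold of the lowest for 38 of the 42 genes. Over all genes this share was 51%, and over the 6398 genes whose mean reached 500 it was 71.7%, so the share moved with brightness. The median signal of the 42 genes was 5424 to 5938 on each array. The brighter set, cut at 500, is thus not matched to them in brightness, here or below. With the 4th array included, 20 of the 42 genes stayed within 1.25-fold, against 18.1% of all genes and 26.9% of the brighter ones. Over the 3 arrays the median gene spanned 1.09-fold, against 1.16-fold for those brighter genes. The 4 genes beyond 1.25-fold on the 3 arrays were Psmb5, Psmd3, Psme4 and Psmg4.

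Irradiation of Wip1+/+ cells left the proteasome genes close to their unirradiated signal. Of the 42 genes 0 were at least 2-fold apart, where 3.07% of all genes and 0.0781% of those whose mean reached 500 were, and 1 was at least 1.5-fold apart, where 10.7% and 1.72% were. With 42 genes, counts of 0 and 1 are near the shares of the brighter genes. The median log2 ratio was 0.02, beside 0.01 for all genes. A ratio above 1 was seen for 26 genes, or for 52.3% of all genes. Within 1.25-fold lay 41 of the 42, against 73.8% of all genes and 89.4% of the brighter genes. The error measure used was the scatter among probe sets that share a gene. Its SD on the log2 scale was 0.21 for the 18 proteasome genes with several probe sets and 0.37 for all genes. It does not cover differences between cultures or arrays.

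**Figure D1:**
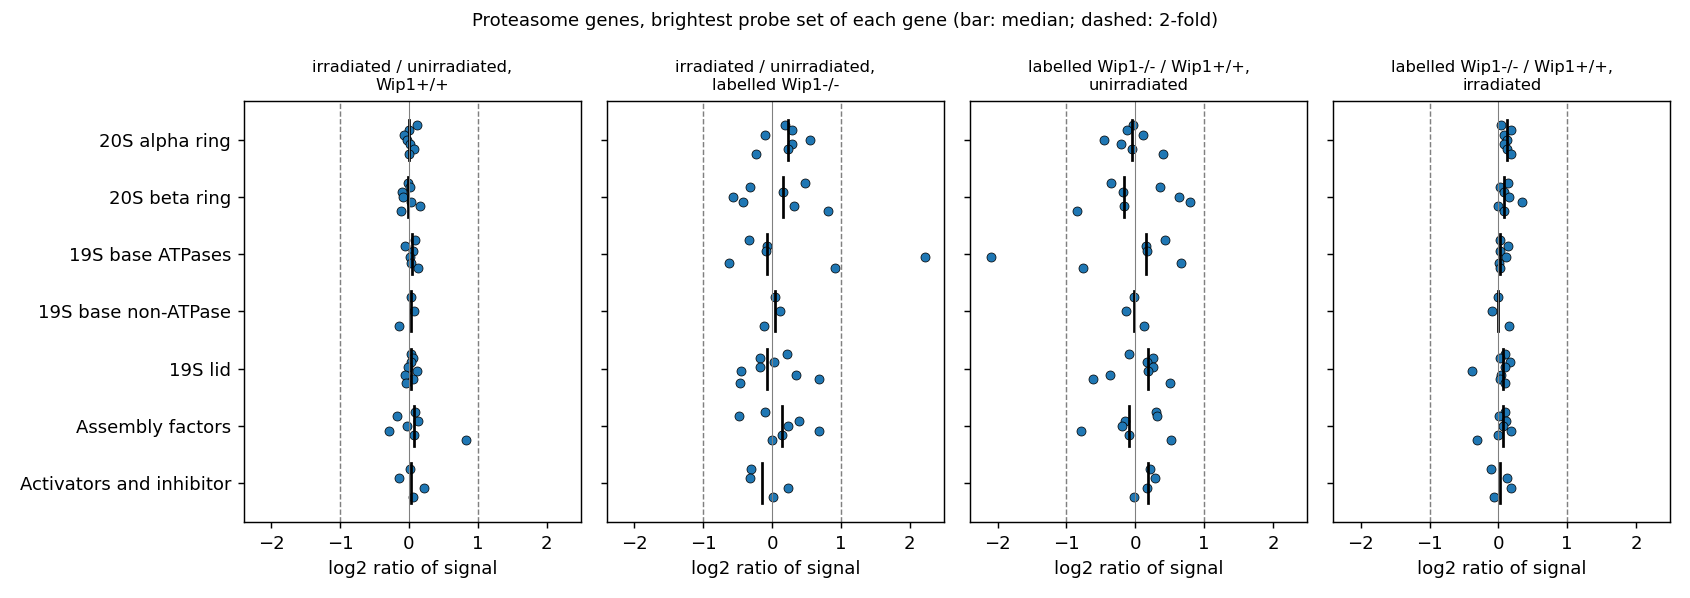
Log2 ratio of signal (horizontal axis) for the 42 proteasome genes by role (vertical axis) in the 4 comparisons. Each point is a gene by its brightest probe set, black bars are medians and dashed lines mark 2-fold. Points lie close to 0 in the first and last panels, apart from Psmg4 at 0.83 in the first, and spread widely in the 2 panels that use the unirradiated array labelled Wip1-/-, where Psmc4 stands at 2.22 and -2.09.

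In the core particle, the log2 ratios of the 7 measured alpha subunits after irradiation of Wip1+/+ cells ran from -0.07 (Psma3) to 0.11 (Psma1), and those of the 7 beta subunits from -0.12 to 0.16. The 3 beta subunits that carry the active sites are Psmb5, Psmb6 and Psmb7. Psmb5, the chymotrypsin-like site, read 5788 and 5897. Psmb6, the caspase-like site, read 6144 and 6870, the highest ratio of the ring at 0.16. Psmb7, the trypsin-like site, read 14885 and 13697, the lowest at -0.12. All of these differences were smaller than the SD between probe sets.

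The regulatory particle was equally close. Its 6 ATPases had log2 ratios of -0.05 to 0.13, the 3 other base subunits -0.14 to 0.08 and the 8 lid subunits -0.05 to 0.12. Psmd4, a ubiquitin receptor of the base, had -0.14 by its brighter probe set and -0.00 by the other. Psmd14, the deubiquitinase of the lid, read 8344 and 8239. Psmd1 and Psmd2, the scaffolds of the base, had 0.03 and 0.08.

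The assembly factors held the widest ratio. Psmg4, a chaperone of alpha ring assembly, read 386 and 683 on the unirradiated and irradiated Wip1+/+ arrays, and 552 on both arrays labelled Wip1-/-. It was thus 1.77-fold higher after irradiation in Wip1+/+ and level in cells labelled Wip1-/-, and its unirradiated Wip1+/+ value was the lowest of the 4. The level ratio uses the unirradiated array labelled Wip1-/- that stood apart. Both ratios of Psmg4 rest on 1 probe set with a mean signal of 543, as the other read 50.1 or less. Psmg3, its partner in the same chaperone, read 683, 717, 642 and 712 on the Wip1+/+ unirradiated and irradiated and the Wip1-/- unirradiated and irradiated arrays.

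Psmg1 and Psmg2 form the other chaperone of the alpha ring. Psmg1 had a log2 ratio of -0.03 in irradiated Wip1+/+ cells. The probe sets of Psmg2 went opposite ways, -0.29 and 0.33. Among the chaperones of the base, Psmd5 had -0.17, Psmd9 0.13 and Psmd10 0.09. Psme4, a nuclear activator of the core, had 0.22 by its brightest probe set and 0.03 and 0.02 by 2 others, and Psme3, another nuclear activator, -0.14 and -0.04. Psme1, part of the interferon-inducible activator, had 0.01. Psmf1, a regulator first described as an inhibitor, had 0.07 by its brightest probe set and 0.25 and -0.41 by 2 dimmer ones.

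After irradiation, cells labelled Wip1-/- and Wip1+/+ cells also read alike, with most genes slightly higher under the Wip1-/- label. Of the 42 genes 0 were at least 2-fold or 1.5-fold apart, where 5.29% and 14.6% of all genes were (1.31% and 4.8% of the brighter genes). With 42 genes, counts of 0 are near the shares of the brighter genes. A ratio above 1 was found for 34 genes and one below 1 for 8, where 49.1% of all genes were above 1. The split was 29 to 13 with a gene taken as the median of its probe sets, and 37 to 5 under scaling by the brighter probe sets. The median log2 ratio was 0.08, beside -0.00 for all genes, and stayed between 0.03 and 0.09 over the settings tried. Within 1.25-fold lay 40 of the 42, against 68.4% of all genes and 83.8% of the brighter ones. No test bears on this shift, since each group holds 1 array.

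By the brightest probe sets, the alpha ring was higher in 7 of 7 genes, with log2 ratios of 0.04 to 0.18, and the ATPases in 6 of 6, with 0.01 to 0.13. Another probe set was below 0 in Psmc4, at -0.13 and bright, and in Psma3 and Psmc2, at -0.15 and -0.03 and dim. Of the lid genes 7 of 8 were above 0, of the assembly factors 5 of 7, of the activators and inhibitors 2 of 4, and of the other base subunits 1 of 3. In the beta ring 6 of 7 were above 0 and Psmb6 was at -0.01. Psmb5 had the highest ratio of all: it read 5897 on the irradiated Wip1+/+ array and 7448 on the irradiated array labelled Wip1-/-, 1.26-fold higher. The unirradiated Wip1+/+ array read 5788, so both Wip1+/+ arrays lay below it. Psma2, Psma7 and Psme4 followed with 0.18, 0.18 and 0.19, and Psmg2 with 0.19 by its brighter probe set and -0.12 by the other.

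The lowest ratio was that of Psmd3, a lid subunit, which read 2396 unirradiated and 2600 irradiated in Wip1+/+ cells, and 2732 and 1998 under the Wip1-/- label. It was 1.30-fold lower after irradiation under the Wip1-/- label, by its 1 probe set. Psmg4 had -0.31, Psme1 -0.11, Psmd2 -0.09 and Psmf1 -0.07. All other genes below 0, Psmb6, Psmd1 and Psmg3, were at -0.01. The 6 genes with the antioxidant response element did not stand together in the ratios. On the irradiated arrays their log2 genotype ratios were 0.34 for Psmb5, -0.01 for Psmb6, 0.02 for Psmc6, 0.11 for Psmd9, 0.02 for Psmd12 and 0.19 for Psme4.

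**Figure D2:**
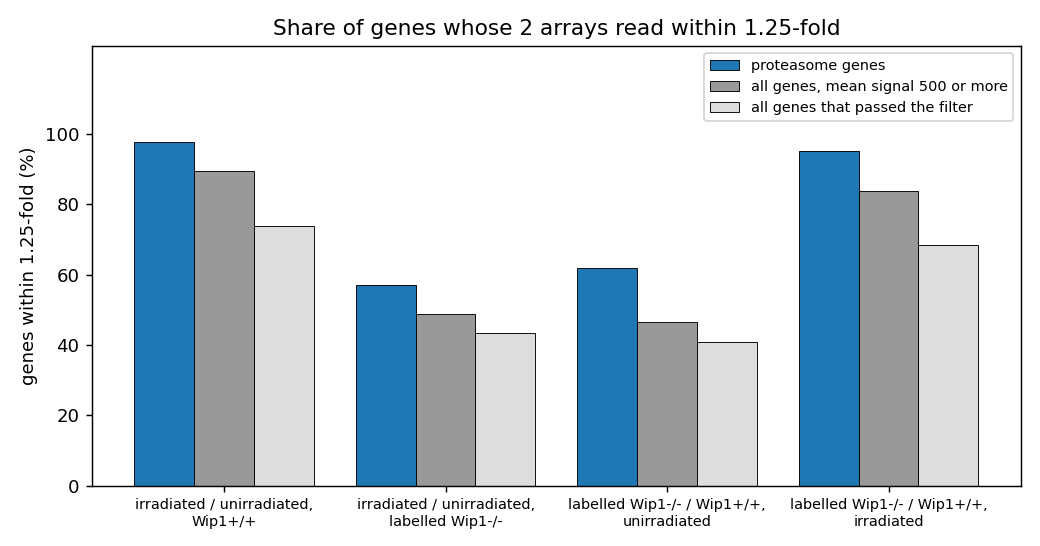
Percent of genes (vertical axis) whose signals on the 2 arrays of each comparison lay within 1.25-fold. Blue bars are the 42 proteasome genes, grey bars the 6398 genes whose mean signal reached 500 and light bars all 11546 genes. The proteasome bars stand at 97.6% and 95.2% in the 2 comparisons without the unirradiated array labelled Wip1-/- and at 57.1% and 61.9% in those with it, where the other bars are lower too.

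The 2 comparisons that use the unirradiated array labelled Wip1-/- gave wider ratios, in both directions. For irradiation of cells labelled Wip1-/-, 1 of the 42 genes was at least 2-fold apart (10.3% of all genes and 4.3% of the brighter ones) and 6 at least 1.5-fold (30.8% and 22.6%). For the unirradiated genotypes 1 was at least 2-fold apart (12% and 5.78%) and 8 at least 1.5-fold (32.9% and 25.8%). Medians were 0.04 and 0.05, with 23 and 21 genes above 0, where 47.4% and 53.5% of all genes were. Within 1.25-fold lay 24 and 26, against 43.3% and 41% of all genes and 48.8% and 46.5% of the brighter ones. These comparisons share that array, so a low value on it gives a high ratio in the first and a low ratio in the second. With the irradiated array labelled Wip1-/- set against the mean of both Wip1+/+ arrays instead, 0 of the 42 genes were at least 2-fold apart. Of all 11546 genes, 192 were higher and 298 lower by that much, and of the 6398 brighter ones 28 and 47. The median was 0.07, beside 0.01 for all genes, and 37 genes were above 0, where 5982 of all genes were. That ratio crosses the genotype labels and does not measure irradiation of cells labelled Wip1-/-.

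The genes low on this array came from the core, the base, the lid and the assembly factors. Psmb7 read 8274 on it and 13697 to 14885 on the other 3. Psmc6, an ATPase, read 3852 against 6534 to 7244, and its second probe set 1118 against 1512 to 1665, while the dimmest read 298 against 218 to 311. Psmd7, a lid subunit that pairs with Psmd14, read 2601 against 3963 to 4189. In each bright probe set the value on this array lay below the whole range of the others.

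Other genes were high on the same array. Psmb5 read 10015 there and 5788 to 7448 on the others. Psmc5, another ATPase, read 5546 against 3488 to 3586, which made its irradiation ratio the lowest of the 42 at -0.63. Psmb4, a beta subunit without an active site, read 16761 by its brightest probe set against 10155 to 11278. Psmd8, a lid subunit, read 24361 against 16574 to 17681. Neighbours in one ring or one particle thus stood on opposite sides: Psmc5 was 1.59-fold higher and Psmc6 1.70-fold lower than in unirradiated Wip1+/+ cells.

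Psmg2 was the 1 gene of 18 with several usable probe sets in which all of them were past 1.5-fold the same way. Its probe sets read 836 and 491 on the unirradiated array labelled Wip1-/-, against 1181 to 1442 and 806 to 1014 on the others. That made it 1.61- and 1.90-fold higher after irradiation of cells labelled Wip1-/-, and 1.73- and 1.64-fold lower in the unirradiated genotype comparison. Its dimmest probe set, which did not pass the filter, went the other way, at 143.8 on that array and 57.2 or less on the others. Such a shared shift was seen in 3.47% of 5278 genes with several probe sets in the irradiation comparison and in 4.74% in the genotype comparison. In the 2 comparisons without this array 0 of the 18 genes met it (0.701% and 2.16% of all).

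Probe sets of one gene disagreed most in 3 genes, each through a single bright probe set. Psmc4 is an ATPase of the base. Its probe set 1416290_a_at read 6604 and 6699 on the unirradiated and irradiated Wip1+/+ arrays, 1550 on the unirradiated and 7203 on the irradiated array labelled Wip1-/-. Its probe set 1416291_at read 4295, 4669, 3644 and 4264 in that order. The first was 4.65-fold higher after irradiation of cells labelled Wip1-/- and the second 1.17-fold. The low value was confined, among these 8 readings, to 1 probe set on 1 array.

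Psmb4 gave the same picture with the other probe set as the outlier. Its probe set 1438984_x_at read 8467 and 8486 in Wip1+/+ cells, 961 on the unirradiated and 10232 on the irradiated array labelled Wip1-/-. That is 8.81-fold lower than in unirradiated Wip1+/+ cells, while 1451205_at, the brighter one, was 1.56-fold higher there. The choice of the brightest probe set hid this value for Psmb4 and showed it for Psmc4. The suffix _x_at marks a probe set with probes that may also match other transcripts.

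Psmd6, a subunit of the lid, differed in another way. Its probe set 1423696_a_at read 6184 unirradiated and 6893 irradiated in Wip1+/+ cells, and 502 and 489 under the Wip1-/- label. It was 12.3-fold lower under the Wip1-/- label before irradiation and 14.1-fold lower after it, with no overlap between the labels. Its probe set 1423697_at read 7930 and 7646, then 6149 and 7856, and was 1.29-fold lower and 1.03-fold higher. The low signal was thus on both arrays of one label, 1 of them not the array that stood apart, and in 1 of 2 probe sets. Both irradiation log2 ratios of the low probe set were small, 0.16 and -0.04. The macrophage marker sum was low on the same arrays, and its part in this value was not tested. The stretch of the transcript that each probe set reads was not analysed here.

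**Figure D3:**
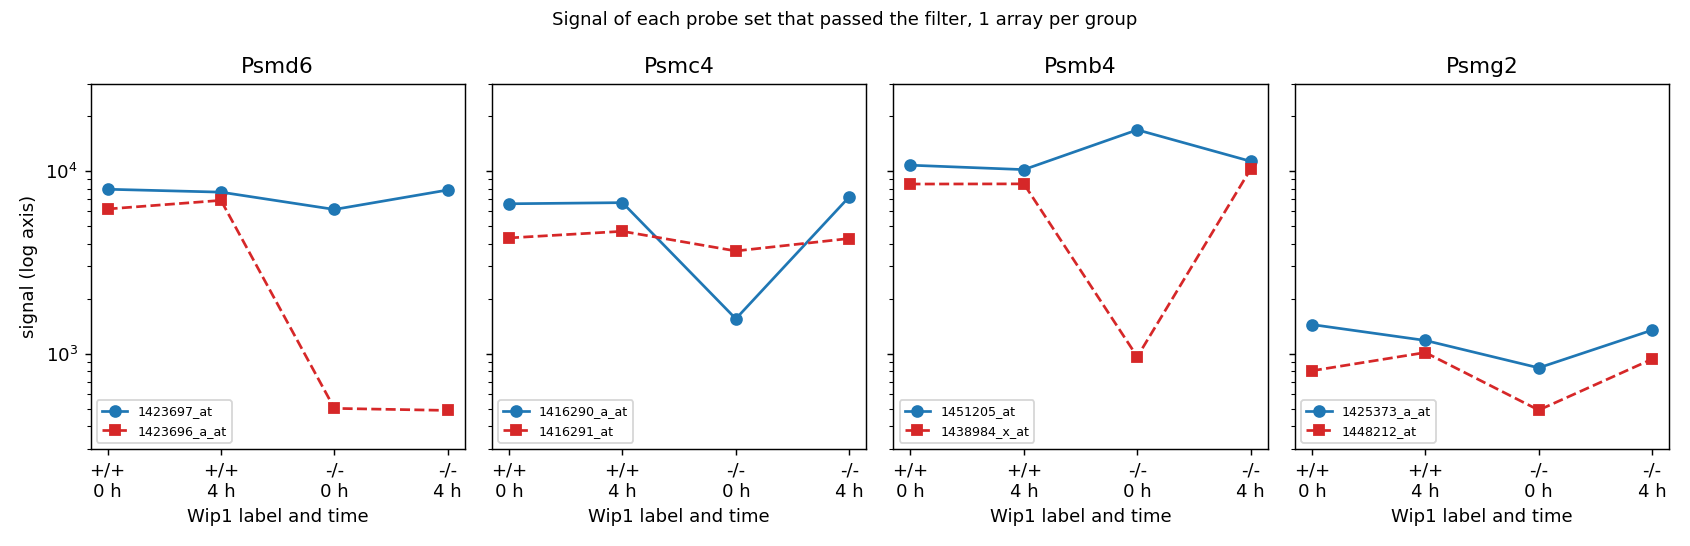
Signal on a log axis (vertical) on the 4 arrays (horizontal: Wip1 label and hours) for each probe set of Psmd6, Psmc4, Psmb4 and Psmg2 that passed the filter. One probe set of Psmd6 is low on both arrays labelled Wip1-/-, at 502 and 489; one of Psmc4 and one of Psmb4 are low on the unirradiated one only, at 1550 and 961; both of Psmg2 dip there together.

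How common such single probe sets are was counted over the 2317 genes with at least 2 probe sets whose mean reached 500, of which 15 were proteasome genes. A probe set at least 4-fold lower on the unirradiated array labelled Wip1-/- than on each of the other 3 was found in 11 genes, Psmc4 and Psmb4 among them. In 9 of the 11, Psmc4 included, another probe set of the gene stayed within 1.5-fold over all 4 arrays. A probe set at least 4-fold lower on both arrays labelled Wip1-/- than on either Wip1+/+ array was found in 3 genes, and in 2 of them, Psmd6 included, another stayed within 1.5-fold. These counts were defined after the values of the 3 genes had been seen and are a description.

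The weight of these 3 genes in the scatter differed between comparisons. Over probe sets whose mean reached 500, the SD of the log2 genotype ratio in irradiated cells was 0.65 for proteasome genes and 0.23 for all genes. Without Psmd6, Psmc4 and Psmb4, left out because they disagreed most, it was 0.10, which is a description. For irradiation of Wip1+/+ cells the proteasome genes had 0.17, or 0.18 without these 3, beside 0.18 for all genes. For irradiation of cells labelled Wip1-/- they had 0.81, or 0.35 without these 3, beside 0.54 for all genes. For the unirradiated genotypes they had 0.94, or 0.35 without these 3, beside 0.55. A range of at least 1 on the log2 scale was found in 0 of 18 genes for irradiation of Wip1+/+ cells and in 1, Psmd6, for the irradiated genotypes, where 10.9% and 13.2% of all genes had one. It was found in 5 for irradiation of cells labelled Wip1-/- and in 6 for the unirradiated genotypes, where 35.6% and 36.7% had one. Besides the 3 genes above and Psmc6, these were Psma6, Psmb1 and Psmd13. Over probe sets whose mean reached 500, such a range was found in 0 of 15 genes for irradiation of Wip1+/+ cells and in 1 for the irradiated genotypes. Of 2317 genes, 0.216% and 1.9% had one. It was found in 2 of the 15 for irradiation of cells labelled Wip1-/- and in 4 for the unirradiated genotypes, where 23.8% and 24.8% had one.

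In Psma6 and Psmb1 dim probe sets stood against brighter ones. The dim probe set of Psma6, an alpha subunit, read 434 on the unirradiated array labelled Wip1-/- and 194 to 255 on the others, while the bright ones had irradiation ratios of 0.23 and 0.33. Those of Psmb1, a beta subunit, read 445 and 258 there against 245 to 306 and 144 to 178, while the bright one was lowest there at 6661. Psmd13, a lid subunit, was split between bright probe sets: the brightest read 2228 to 2555 on all 4 arrays, the second 644 on this array against 1195 to 1275, and the dimmest 41.3 against 88.8 to 117. Psma5, an alpha subunit, was also split between 2 bright probe sets, with log2 ratios of 0.30 and -0.63 after irradiation of cells labelled Wip1-/-. Psmd11, a lid subunit with 8 probe sets, had 5 that passed, with -0.58 to 0.22 there and 0.03 to 0.56 in Wip1+/+ cells.

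**Figure D4:**
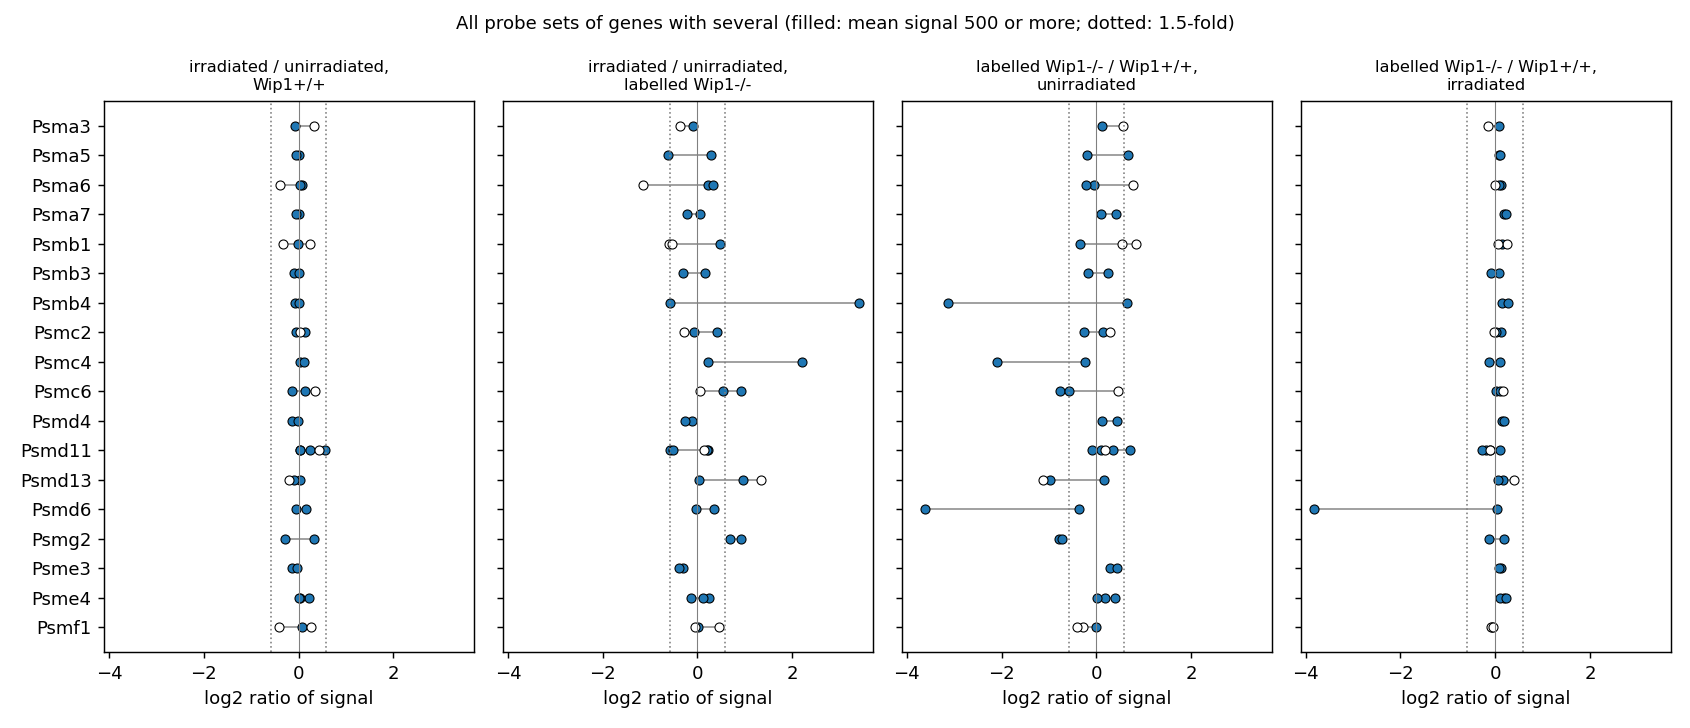
Log2 ratio of signal (horizontal axis) of every probe set that passed the filter, for the 18 proteasome genes with several (vertical axis), in the 4 comparisons. Filled points have a mean signal of 500 or more, open points less, grey lines join the probe sets of a gene and dotted lines mark 1.5-fold. The long lines are those of Psmb4 and Psmc4 in the middle panels and Psmd6 in the last 2, where it reaches -3.62 and -3.82.

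The immunoproteasome subunits replace the active sites of the core under interferon and were taken from a list beside the constitutive genes. Psmb10 read 690 unirradiated and 646 irradiated in Wip1+/+ cells, and 450 and 536 under the Wip1-/- label. Psmb8 read 137, 77.2, 51.8 and 63.3 in that order, close to the floor, and Psmb9 did not pass the filter. Psme1, also inducible by interferon, read 2509 and 2524 in Wip1+/+ cells and 2899 and 2340 under the Wip1-/- label. Summed signal of 7 interferon-stimulated genes was 2732 and 2615 in Wip1+/+ cells and 601 and 643 under the Wip1-/- label. Usp18 alone read 1394.5 and 1206.8, then 80.9 and 121.5. Rsad2 and Mx1 did not pass the filter. In unirradiated cells their brightest probe sets read higher under the Wip1-/- label, at 89.7 against 53.4 and 74.6 against 32.8. The part of this summed signal in the immunoproteasome values was not tested.

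Of 7 partners of the proteasome outside the naming rule, 0 were at least 1.5-fold apart after irradiation of Wip1+/+ cells (10.7% of all genes), with a median log2 ratio of -0.02. Between the irradiated genotypes 0 were as well (14.6% of all genes), with a median of 0.14. With 7 genes, counts of 0 are near these shares. Usp14, the deubiquitinase bound to the base, read 4102 and 4100 in Wip1+/+ cells, 1765 on the unirradiated and 4768 on the irradiated array labelled Wip1-/-. Its log2 irradiation ratio under the Wip1-/- label was 1.43, with 1.22 and 0.78 by the next brightest probe sets and -1.25 by the dimmest. Pomp, the maturation chaperone of the core, read 8434 and 7639, then 5829 and 8443. Ube3c, a ubiquitin ligase of the proteasome, was high on that array by one probe set, at 1660, and low by another, at 523.

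Of the ubiquitin genes listed, Uba6, an activating enzyme, was measured. By its brightest probe set it read 3026 and 3004 in Wip1+/+ cells, and 955 unirradiated and 3610 irradiated under the Wip1-/- label. The 3 other usable probe sets had log2 genotype ratios of -0.32 to -0.26 in unirradiated cells, against -1.66 by the brightest. Among 7 shuttle and p97 genes 0 were at least 1.5-fold apart in the 2 comparisons without the unirradiated array labelled Wip1-/-, which is again near the 10.7% and 14.6% of all genes. Vcp, the p97 ATPase that extracts ubiquitinated proteins, read 12854 and 13620 in Wip1+/+ cells and 14345 and 12934 under the Wip1-/- label. With the unirradiated array labelled Wip1-/-, the brightest probe set of Rad23b, a shuttle factor, had a log2 irradiation ratio of -0.71. Its other usable probe sets had 0.14 and -0.48. Ubqln2, another shuttle factor, had 0.90 by its brightest probe set and -0.99 by a dim one.

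Of 11 regulators of proteasome gene transcription, 1 was at least 1.5-fold apart after irradiation of Wip1+/+ cells, near the 10.7% of all genes. Nfyb, a subunit of the factor that binds CCAAT boxes, read 377 and then 735, with 605 and 675 by its other probe set. Nfe2l1, the factor that raises proteasome genes when proteasome activity is lost, read 2801 and 2307 in Wip1+/+ cells and 3008 and 2501 in cells labelled Wip1-/-. Its log2 irradiation ratios were -0.28 and -0.27. Nfe2l2, its relative in the oxidative stress response, read 2908 and 3475, then 2212 and 2423.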

How the data were processed

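Gene expression was measured on 4 arrays, 1 per group by genotype label and irradiation. The authors deposited 1 linear signal intensity per probe set and array. Per the submitters' processing notes, GCOS was used; its version, background step and target were not stated. The mean of each deposited column after trimming 2% at each end was 500.

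Gene symbols came from GEO's platform annotation, and checking symbols by gene identifier against RefSeq (GRCm38.p6) changed 0. Of 45037 probe sets without the 64 controls, 932 with more than 1 symbol and 9160 without an entry were not used for genes. The floor was the 40th percentile of all values, and the filter the median of all probe set means. Ratios are log2 of 1 array over another. Calls are by size: at least 2-fold, and at least 1.5-fold. The number of arrays limits the precision.

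The genes, lists, named-gene rule and settings were chosen with earlier results of these data known. Named were Psmc4, the 5 highest and lowest genes per comparison, and those with a probe set at least 1.5-fold apart or a range of at least 1 (log2). The other lists held macrophage, fibroblast and interferon-stimulated markers, given in the report, and epithelial and endothelial markers, whose summed signals ran from 1505 to 2110 and from 376 to 512 over the arrays, with 2 of 6 endothelial markers at the floor on every array. Alternatives were 3 scalings (quantile, cyclic loess, median of brighter probe sets), 2 floors, 2 filters, the median over probe sets, no _x_at or _s_at probe sets, and a 1.5-fold call. The calculation was tested on simulated data. R 4.3.3 with limma 3.58.1 and Python 3.11.15 with numpy 2.4.6 and pandas 2.3.3 were used.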

Additional observations from a re-analysis of the deposited data

Results flagged for a closer look

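In 3 of the 70 probe sets that passed, the irradiation log2 ratio went opposite ways under the 2 genotype labels. Each ratio was larger than the SD among bright probe sets that share a gene. The share of all probe sets that meet this limit is not given here, so 3 cannot be read as many or few. That SD was 0.18 for Wip1+/+ and 0.54 for Wip1-/-, and it was picked as the limit after the values were seen. Over all probe sets the SDs are 0.37 and 0.62, and no probe set passes both. The difference was not tested, and all 3 rest on the unirradiated array that stood apart. For Psmg2, 1425373_a_at had -0.29 in Wip1+/+ and 0.69 in cells labelled Wip1-/-. For Psmd11, 1429370_a_at had 0.24 and -0.58. For Psmd13, the dim 1447843_at had -0.20 and 1.33, with its unirradiated signal under the Wip1-/- label at the floor.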

How the results depend on the processing

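The median log2 ratio of the proteasome genes kept its sign for irradiation of either genotype and for the irradiated genotypes under all alternatives tried. The irradiation medians ran from 0.0069 to 0.032 in Wip1+/+ cells and from 0.0016 to 0.037 in cells labelled Wip1-/-. Values so close to 0 give no direction. The median of the unirradiated genotypes, 0.05, turned to -0.0071 with no filter. The median difference between the irradiation ratios, 0.01, turned to -0.0039 under scaling by the brighter probe sets and to -0.024 with a gene taken as the median of its probe sets. No direction can be given to these 2 medians either. Counted at 1.5-fold in place of 2-fold, the genes apart numbered 1 instead of 0 for irradiation of Wip1+/+ cells, 6 instead of 1 for irradiation of cells labelled Wip1-/-, and 8 instead of 1 for the unirradiated genotypes. Taking that median they numbered 2 for irradiation of cells labelled Wip1-/-, 3 for the unirradiated genotypes and 1 instead of 0 for the irradiated ones. With the irradiated array labelled Wip1-/- set against the mean of both Wip1+/+ arrays they numbered 0. That ratio crosses the genotype labels and is not a second estimate of the irradiation ratio. For the probe sets examined singly, 1 value changed sign: Psmd6 1423697_at, at 0.04 for the irradiated genotypes, had -0.00085 under quantile normalization. Psmd6 1423696_a_at ran from -3.87 to -3.81 there, Psmc4 1416290_a_at from -2.09 to -2.06 and Psmb4 1438984_x_at from -3.14 to -3.11 in the unirradiated genotypes. The filter at a mean of 500, chosen after seeing the data, kept all 42 genes. No paired analysis was possible because each group holds 1 array. Psmg4, Psmd9, Psmg3 and Psmf1 had the lowest mean signals of the 42 genes, and signal over background limits them.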

Other observations

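Of the 96 probe sets of proteasome genes, 26 did not pass the filter, with signals of 1.2 to 143.8, and 14 were at or below the floor on all arrays. Genes with similar names that encode other proteins were measured too. Psmc3ip, a factor of meiotic recombination, read 272, 284, 193 and 328 on the Wip1+/+ unirradiated and irradiated and the Wip1-/- unirradiated and irradiated arrays by its brighter probe set. Its other probe set was highest where this one was lowest, at 271. Psme3ip1, which binds the nuclear activator Psme3, read 1221, 1156, 982 and 1247. The probe set shared by Psme2 and Psme2b read 2723, 2840, 3400 and 2595.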
